A study of Homo sapiens with 6 samples.

Results

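The HSP70 proteins are ATP-driven chaperones that bind exposed hydrophobic stretches of unfolded or newly made proteins and release them on a nucleotide cycle. J-domain proteins bring them clients and start ATP hydrolysis. The HSP110 proteins, larger relatives of HSP70, act mainly as nucleotide exchange factors that reset the cycle. HSPA8 (HSC70) is the constitutive cytosolic form, HSPA1A and HSPA1B are the stress-inducible pair, and HSPA9 (mortalin) works in the mitochondrial matrix. Transcription of many of these genes is driven by heat shock factor 1, which binds inverted repeats of GAA called heat shock elements.

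The genes described here were 10 of the 61806 in the deposited table: HSPA1A, HSPA1B, HSPA2, HSPA8, HSPA9, HSPA13 and HSPA14 of the HSP70 family, and HSPA4, HSPA4L and HSPH1 of the HSP110 family. They were chosen by gene symbol, with their levels in this same comparison of groups already known. Their changes are therefore given as a description, with no p-value. All 10 passed the filter on low counts, which left 15687 genes. HSPA1A did so through its si-STRIP2 libraries, since 1 of 3 si-NC libraries was above the limit of 0.575 CPM, the count scaled to the library total.

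RNA was sequenced from HCT116, an established line of human colorectal cancer cells grown in McCoy's medium with serum. In 3 libraries the cells had received a control short interfering RNA (si-NC, labelled wildtype), and in 3 one against STRIP2, a protein of the STRIPAK complexes that join a phosphatase to kinases (si-STRIP2, labelled STRIP2 knockdown). The number and sequence of the interfering RNAs, the time after transfection and whether libraries came from separate cultures are not given in the sources used here, so p-values measure the spread between these libraries alone, which may be technical. The comparison asks which transcripts differ when STRIP2 is lowered.

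Total counts ranged from 17184963 to 21721218 per library. STRIP2 averaged 3.59 ± 0.347 FPKM in si-NC (SD, n = 3; the count scaled to exonic length and library total) against 2.61 ± 0.0929 FPKM after si-STRIP2, which is 72.6% of the control. Of 10 colorectal epithelial markers, 6 averaged at least 1 FPKM, EPCAM, CDH1 and the keratins KRT8, KRT18 and KRT19 the most abundant among them, and their sum was 691.2 to 721.4 FPKM in si-NC against 667.9 to 691.4 in si-STRIP2. Single markers differed in both directions: CDH1 was at 66.1% and KRT20 at 50% of the control level, KRT19 at 117% and CDX2 at 131%. KRT20 was scarce, at 0.627 ± 0.145 FPKM in si-NC and 0.313 ± 0.0751 FPKM in si-STRIP2, with a mean count of 16.7. VIL1, CDX1 and LGALS4 were under 0.15 FPKM, CDX1 at 0. Of 9 markers of blood, vessel and stroma, 7 were under 0.15 FPKM. The sum over these 9, mostly COL1A1 and ACTA2, was 3.78 to 4.18 FPKM in si-NC and 3.42 to 3.61 in si-STRIP2, and the part of either sum in the results was not tested.

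Promoter sequences are shown first, since the heat shock element is the best known control of this family. RefSeq promoter windows (GRCh38.p14, 250 bases before the start site to 50 after it) matched 9 of the 10 genes by symbol. The search was for the 2-unit words GAANNTTC and TTCNNGAA, each its own reverse complement, and for 3 alternating units of GAA and TTC with 2 bases between units, on both strands. A 3-unit match contains both 2-unit words. The stretch upstream of the start site is printed for the HSPA8 gene, the member with 3-unit matches, and for the stress-inducible pair. Lines read 5′ to 3′ on the strand of the gene and end at the base before the start site, with matches in capitals.
HSPA8 (chr11:123062137-123062386, minus strand): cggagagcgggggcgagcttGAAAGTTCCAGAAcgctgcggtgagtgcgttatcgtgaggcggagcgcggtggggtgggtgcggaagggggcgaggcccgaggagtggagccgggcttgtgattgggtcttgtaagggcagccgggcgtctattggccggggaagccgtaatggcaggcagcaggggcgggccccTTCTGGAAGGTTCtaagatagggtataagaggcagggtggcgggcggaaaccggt
HSPA1A (chr6:31815383-31815542, plus strand): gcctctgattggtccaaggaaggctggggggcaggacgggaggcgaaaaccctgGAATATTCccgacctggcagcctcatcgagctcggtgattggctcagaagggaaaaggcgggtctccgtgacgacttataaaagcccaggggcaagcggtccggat
HSPA1B (chr6:31827578-31827737, plus strand): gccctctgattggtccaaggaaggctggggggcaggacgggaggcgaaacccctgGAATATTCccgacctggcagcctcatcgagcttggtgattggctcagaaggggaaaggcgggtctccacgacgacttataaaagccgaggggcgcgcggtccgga

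HSPA8 held a pair of 3-unit words, GAAAGTTCCAGAA starting 230 bases and TTCTGGAAGGTTC starting 55 bases before the start site. Of all 35116 promoter windows, 0.490% held a 3-unit word and 0.0399% held at least 2 of them. HSPA1A and HSPA1B each held the single 2-unit word GAATATTC, at 106 and 105 bases before their start sites, and their 250 upstream bases were 93.6% identical. HSPA4L held a 2-unit word, TTCTCGAA, in 1 of its 3 windows, and HSPA9 held one that ran across its start site. A 2-unit word of either kind was present in 13.5% of all windows. No match was found in the windows of HSPA2, HSPA4, HSPA13 and HSPH1. Only exact GAA and TTC units were searched, so elements with an altered unit were not counted. A window without a match may still hold such an element. A match describes the letters in the window and is no measurement of binding.

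**Figure D1:**
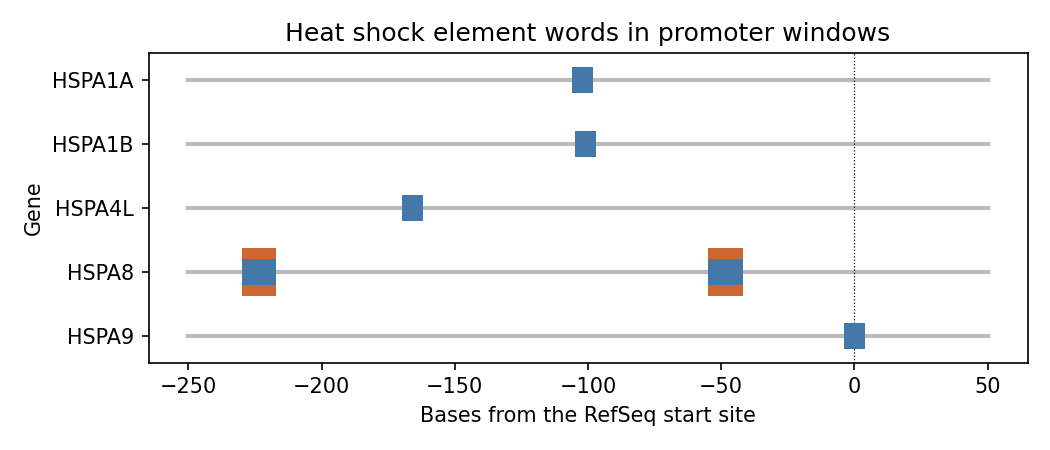
Heat shock element words in the 5 promoter windows of the family that held one, by distance in bases from the RefSeq start site (dotted line). Blue boxes are 2-unit words and taller orange boxes 3-unit words, which only the HSPA8 window holds, starting 230 and 55 bases upstream.

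HSPA8 (ENSG00000109971, chr11:123057489-123063230, minus strand in the deposited GRCh38 annotation, as for all positions below) showed the largest change of the 10 genes. This constitutive HSP70 folds new proteins, uncoats clathrin vesicles and delivers clients to lysosomes. Its level was 63.58, 64.30 and 59.65 FPKM in the si-NC libraries and 185.12, 200.19 and 198.83 FPKM in the si-STRIP2 libraries. Each si-STRIP2 library stood far above each si-NC library. The log2 fold change, si-STRIP2 minus si-NC here and throughout, was 1.64 with a standard error of 0.0458 (95% interval 1.54 to 1.73), a 3.11-fold higher level. Among the 15687 genes tested its log2 fold change ranked 42nd from the top. In a bulk RNA sample, more RNA per cell and more cells of a type cannot be told apart.

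The stress-inducible pair was low in both groups and higher in si-STRIP2 cells. HSPA1B (ENSG00000204388, chr6:31827738-31830254, plus strand), which encodes the same HSP70 protein as HSPA1A, was at 6.42, 5.74 and 5.76 FPKM in si-NC and 12.61, 12.82 and 12.23 FPKM in si-STRIP2. That is a 2.09-fold rise (log2 fold change 1.06, standard error 0.0736, 95% interval 0.91 to 1.21). HSPA1A (ENSG00000204389, chr6:31815543-31817946, plus strand) had 12, 9 and 11 counts in si-NC and 19, 17 and 21 counts in si-STRIP2. The log2 fold change was 0.89 (standard error 0.327, 95% interval 0.23 to 1.56). The groups did not overlap for either gene, as for 58.6% of all tested genes. HSPA1A had passed the filter on low counts through its si-STRIP2 libraries, so its separation carries no weight. The counts cannot divide expression between the 2 genes: of the 100-base words in the GENCODE 29 principal transcript, 69.9% of those of HSPA1A and 72.7% of those of HSPA1B also occur in another gene, chiefly in the other of the pair. HSPA1A received 2.93% to 4.23% of the pair's counts, and how reads with several matches were counted is not given in the sources used here. Summed and fitted as 1 gene, the pair gave 1.06 on the log2 scale (standard error 0.0723).

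The remaining HSP70 genes of the cytosol were lower in level or moved less. HSPA2 (ENSG00000126803, chr14:64535905-64546173, plus strand), best known for its part in the testis, had 26, 21 and 19 counts in si-NC and 37, 29 and 30 counts in si-STRIP2. The mean level was 0.213 ± 0.0115 FPKM in the controls against 0.327 ± 0.0306 FPKM (SD, n = 3), and the 95% interval of the log2 fold change, 0.60, ran from 0.099 to 1.11. The antisense gene HSPA2-AS1 held 24.1% as many counts as HSPA2, and use of strand in counting is not given in the sources used here. HSPA14 (ENSG00000187522, chr10:14838306-14871741, plus strand) forms the ribosome-associated complex with the J-domain protein DNAJC2. It was at 14.70, 14.52 and 13.72 FPKM in si-NC and 13.58, 12.71 and 12.35 FPKM in si-STRIP2, so that the highest si-STRIP2 library lay just under the lowest si-NC library. Its log2 fold change was -0.16 (standard error 0.0606). The HSPA14 value is uncertain, since ENSG00000284024, which overlaps it on the same strand, held 151% as many counts (log2 fold change -0.094), and 20.1% of its 100-base words occur in that other gene, which GENCODE 29 also calls HSPA14. The opposite-strand neighbour CDNF held 10.1% as many counts, with a log2 fold change of -1.002.

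HSPA9 and HSPA13, which work outside the cytosol, were lower in si-STRIP2, as was the cytosolic HSPA14 above. HSPA9 (ENSG00000113013, chr5:138553756-138575675, minus strand) pulls proteins through the inner mitochondrial membrane and serves iron-sulfur cluster assembly. It fell from 112.98, 118.63 and 110.74 FPKM in si-NC to 91.81, 93.59 and 94.54 FPKM in si-STRIP2. Its log2 fold change was -0.29 (standard error 0.0436, 95% interval -0.38 to -0.20), or 81.8% of the control level. HSPA13 (ENSG00000155304, chr21:14371115-14383484, minus strand), a microsome-associated HSP70 relative that lacks the usual substrate-binding part, fell from 38.64, 39.49 and 38.88 FPKM to 26.07, 26.86 and 27.79 FPKM. This was the largest fall of the 10, a log2 fold change of -0.54 (standard error 0.0415, 95% interval -0.62 to -0.45) or 69.0% of the control level. The 2 groups were fully apart for both genes, as for 58.6% of all tested genes. Among the log2 fold changes of all tested genes, HSPA9 stood at percentile 22.3 and HSPA13 at percentile 10.3.

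Among the HSP110 genes, HSPH1 (HSP105) rose and the others differed little. HSPH1 (ENSG00000120694, chr13:31134973-31162388, minus strand) was at 18.93, 20.44 and 19.33 FPKM in si-NC and 28.59, 29.05 and 28.63 FPKM in si-STRIP2. Its log2 fold change was 0.55 (standard error 0.0399, 95% interval 0.47 to 0.63), a 1.47-fold higher level. This stood at percentile 91.5 of all tested genes. HSPA4 (APG-2, ENSG00000170606, chr5:133052013-133106449, plus strand), the most abundant HSP110 gene, was at 76.30, 78.97 and 75.57 FPKM in si-NC and 81.84, 81.97 and 82.84 FPKM in si-STRIP2. That is a separation of the groups at a log2 fold change of 0.093 (95% interval 0.012 to 0.17), a 1.07-fold difference. HSPA4L (APG-1, ENSG00000164070, chr4:127781821-127840733, plus strand) was at 3.76, 3.90 and 3.77 FPKM in si-NC and 4.07, 4.27 and 4.00 FPKM in si-STRIP2. Its log2 fold change was 0.11, with a 95% interval from -0.0001 to 0.21. The ratio of HSPA4 to HSPH1 in FPKM went from 3.94 ± 0.0863 to 2.86 ± 0.036 (SD, n = 3), and with principal transcript lengths from 2.56 ± 0.0564 to 1.86 ± 0.0237.

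**Figure D2:**
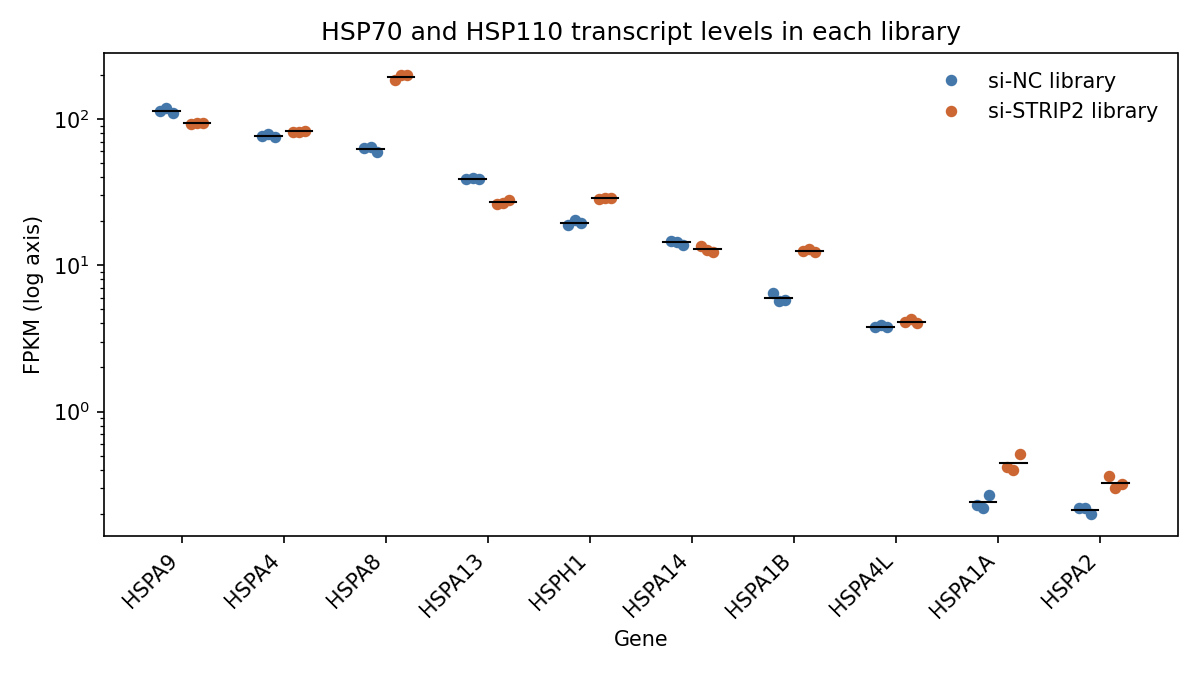
Level of each of the 10 genes in each library, in FPKM on a log axis, with si-NC in blue and si-STRIP2 in orange and a bar at the mean of each 3 libraries. On the deposited exonic sizes HSPA8 moves from below HSPA9 and HSPA4 to above both. With principal transcript lengths, not drawn here, HSPA8 is above HSPA4 already in si-NC. HSPA1A and HSPA2 lie under 1 FPKM in every library.

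By the edgeR test, 9 of the 10 genes had an adjusted p under 0.05, 6 of them higher in si-STRIP2 cells (HSPA8, HSPA1B, HSPA1A, HSPA2, HSPH1 and HSPA4) and 3 lower (HSPA13, HSPA9 and HSPA14). Across all tested genes 54.8% were called at that threshold, 27.8% higher and 27.0% lower, and since the genes were chosen with these values known, the calls describe them and nothing is read from their share. HSPA1A had passed the filter through its higher group, so its call carries no weight. The groups did not overlap in FPKM for any of the 10 genes, as for 58.6% of all tested genes. The calls of HSPA8, HSPA1B, HSPH1, HSPA9 and HSPA13 were made in all 14 alternative fits. The calls of HSPA1A, HSPA2, HSPA4 and HSPA14 were lost in 4, 8, 10 and 6 of the fits that tested them, DESeq2 among them for all but HSPA4. HSPA1A lost its call without si-NC replicate 1 or 2 or si-STRIP2 replicate 3, and HSPA14 without any of these or si-STRIP2 replicate 2. HSPA4 lost it without any single library, and HSPA2 without any but si-STRIP2 replicate 2. Without si-STRIP2 replicate 3, for instance, none of these 4 was called, at log2 fold changes of 0.78, 0.62, 0.082 and -0.13.

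**Figure D3:**
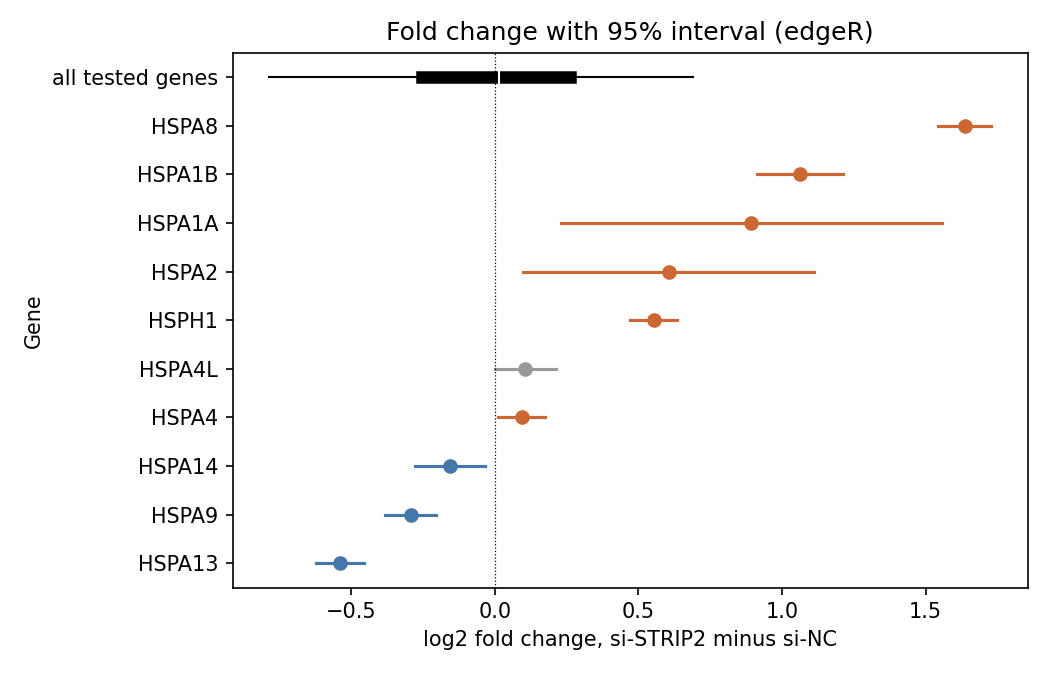
Log2 fold change of each gene with its 95% interval, orange for called higher, blue for called lower and grey for not called. The top line shows all 15687 tested genes. Its thin part runs from the 5th to the 95th percentile and its thick part from the 25th to the 75th. The points of HSPA8 (1.64), HSPA1B (1.06) and HSPA1A (0.89) lie to the right of it. The interval of HSPA1A starts at 0.23, within that line.

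The make-up of the transcripts of these 10 genes shifted with HSPA8. The sums and shares leave out the other genes of the family. Among those, HSPA5 alone was at 418.2 ± 10.4 FPKM in si-NC and 231.4 ± 4.84 FPKM in si-STRIP2. Summed over the 10 genes, the level was 336.7 ± 9.31 FPKM for si-NC and 456.2 ± 10.2 FPKM for si-STRIP2 (SD, n = 3). With principal lengths these sums were 541.6 ± 16.3 and 772.0 ± 19.5. Without HSPA8 the sum of the other 9 genes was 274.2 ± 7.16 and 261.5 ± 1.97 FPKM. It was lower in each si-STRIP2 library (259.4, 262 and 263.2) than in each si-NC library (272.2, 282.1 and 268.2). With principal lengths its mean was also lower in si-STRIP2 (418.6 ± 12.1 and 388.7 ± 3.33). HSPA8 made up 18.6% ± 0.372 of the sum in si-NC and 42.7% ± 0.892 in si-STRIP2, while HSPA9 went from 33.9% ± 0.314 to 20.5% ± 0.203. The ratio of HSPA8 to HSPA9 was 0.563, 0.542 and 0.539 in the si-NC libraries and 2.02, 2.14 and 2.10 in the si-STRIP2 libraries. The 3 HSP110 genes together held 120.6% ± 3.94 of the FPKM of the 5 cytosolic HSP70 genes in si-NC and 52.1% ± 1.63 in si-STRIP2. With lengths of the principal transcripts in place of the deposited exonic sizes, an alternative added after seeing the data, these shares were 78.7% ± 2.59 and 33.2% ± 1.13, so that HSP110 stood above or below cytosolic HSP70 in si-NC depending on the length used. On exonic sizes HSP110 itself, as a sum, was at 100.3 ± 2.59 and 115.1 ± 0.516 FPKM.

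**Figure D4:**
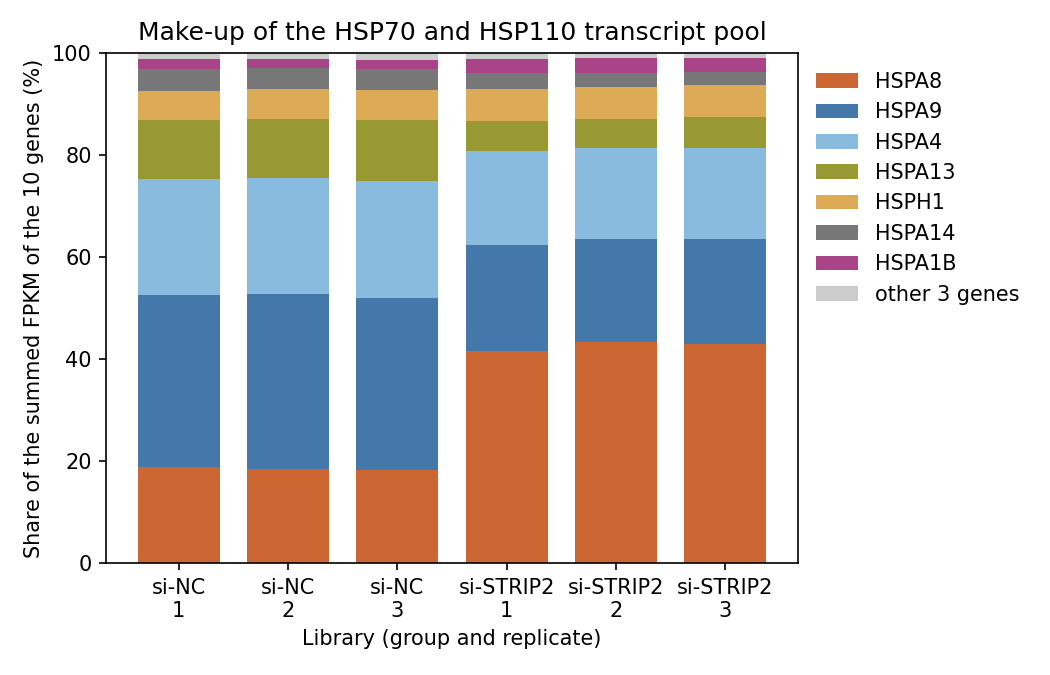
Share of each gene in the summed FPKM of the 10 genes, in percent, with one bar for each library. The orange HSPA8 part averages 18.6% in si-NC and 42.7% in si-STRIP2, and the HSPA9, HSPA4 and HSPA13 parts are smaller in the si-STRIP2 bars.

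The order of levels in si-NC, on the FPKM scale, was HSPA9, HSPA4, HSPA8, HSPA13, HSPH1, HSPA14, HSPA1B, HSPA4L, HSPA1A and HSPA2. Neighbours in that order did not overlap between libraries, apart from HSPA1A and HSPA2, which met at 0.22 FPKM. In si-STRIP2 the order began with HSPA8, HSPA9 and HSPA4, and HSPH1 stood above HSPA13, while HSPA14 and HSPA1B overlapped. These levels rest on the deposited exonic sizes, which for some genes are far above the length of the principal transcript. The size was 9782 bases for HSPA9 against a principal transcript of 4727 in GENCODE 29, and 4849 against 2463 for HSPA8. With principal lengths, HSPA8 (123.1 ± 4.92 FPKM) stood above HSPA4 (80.9 ± 1.88) already in si-NC, below HSPA9 (236.2 ± 8.41), and in si-STRIP2 HSPA8 reached 383.3 ± 16.4 against 193.1 ± 2.87 for HSPA9. The other ranks were as with the exonic sizes. Fold changes of a gene do not depend on its length.

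Profiles over the 6 libraries were compared by the root mean square difference of log2 CPM, centred on the si-NC mean. With that centring the distance rests largely on how far the log2 fold changes differ. A short distance does not show shared control, which was not tested. Among the 10 genes, HSPA4 and HSPA4L were nearest to each other (0.0326), and HSPA8 and HSPA13 farthest apart (1.54). Among 11589 other genes with a symbol and at least 1 FPKM in the higher group, the 5 nearest to HSPA8 were MCM5 (0.113), UNG (0.125), TM4SF18 (0.132), DACT1 (0.138) and CD44-AS1 (0.141). Their log2 fold changes ran from 1.48 to 1.87. TM4SF18, DACT1 and CD44-AS1 averaged only 0.343, 0.537 and 0.853 FPKM in si-NC, so they met the limit through si-STRIP2 alone. The standard errors of their log2 fold changes were 0.187, 0.142 and 0.304. MCM5 is a subunit of the replicative helicase and UNG a DNA glycosylase. Those nearest to HSPA13 were SPATA6 (0.0141), SOAT1 (0.0211), RNF19A (0.0223), SMIM13 (0.0227) and FAM168B (0.0261), with log2 fold changes from -0.57 to -0.52. The nearest profiles of HSPA8 were less close to it than those of HSPA13. HSPA8 ranked 42nd from the top by log2 fold change and HSPA13 stood at percentile 10.3, so fewer genes lay near HSPA8. CD44-AS1 is antisense to CD44, and its value is uncertain without knowledge of strand use.

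The family has 6 other genes in the list used. This list and the partner lists below were chosen with earlier results of these data known. Most genes named from them were picked by size of change, so their adjusted p-values are a description and no independent test. HSPA5 (BiP), the HSP70 of the endoplasmic reticulum, fell from 418.2 ± 10.4 to 231.4 ± 4.84 FPKM (SD, n = 3; log2 fold change -0.86, edgeR adjusted p = 7.30e-17). HYOU1, its HSP110-type exchange factor, fell from 59.9 ± 0.230 to 40.1 ± 1.25 FPKM (-0.58, edgeR adjusted p = 2.40e-14). The distant relative HSPA12A rose from 1.76 to 2.30 FPKM (0.38, edgeR adjusted p = 4.10e-07). HSPA1L and HSPA12B did not pass, at under 0.5 FPKM, and HSPA6, a strictly heat-inducible gene, had 1 count over all libraries and was not tested. Thus 1 of the 5 tested was called higher and 2 lower.

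The partners of HSP70 were taken from lists by role, to be read against the 27.8% of all tested genes called higher and the 27.0% called lower. Of 17 J-domain proteins, 5 were higher, 3 lower and 9 not called, with a median log2 fold change of 0.045 against 0.014 over all tested genes. DNAJA1, a main cytosolic partner of HSPA8, rose from 39.6 ± 2.60 to 81.1 ± 2.53 FPKM (SD, n = 3; log2 fold change 1.03, edgeR adjusted p = 1.56e-19). DNAJA4 rose by 0.70 (edgeR adjusted p = 2.00e-13), and DNAJC7, which bridges HSP70 and HSP90, by 0.31 (edgeR adjusted p = 2.37e-07). DNAJC2, the partner of HSPA14, did not pass (log2 fold change -0.067, edgeR adjusted p = 0.229). Of 9 nucleotide exchange factors other than HSP110, 4 were higher, 3 lower and 2 not called, with a median of 0.040. BAG3, a stress-induced one, rose by 0.35 (edgeR adjusted p = 3.75e-07), while SIL1, which serves HSPA5, fell by 0.49 on the log2 scale (edgeR adjusted p = 6.24e-08).

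HSP90 and the adapters that hand clients from HSP70 to it gave 5 of 7 genes higher, 0 lower and 2 not called, and their median change was 0.66 on the log2 scale. HSP90AA1, the inducible HSP90, rose from 348.4 ± 11.1 to 714.7 ± 31.7 FPKM (SD, n = 3; 1.03, edgeR adjusted p = 4.60e-18). HSP90AB1 rose from 848.8 ± 34.9 to 1656 ± 28.9 FPKM (0.96, edgeR adjusted p = 2.83e-17), and STIP1, the HSP70 to HSP90 adapter, by 0.80 (edgeR adjusted p = 5.24e-17). Of 15 tested heat shock factors and heat-inducible genes, some of them in the lists above, 13 were higher, 1 lower and 1 not called, with a median of 0.35. CHORDC1, an HSP90 co-chaperone, rose by 0.89 (edgeR adjusted p = 5.92e-18). HSF1 was the gene not called (-0.074, edgeR adjusted p = 0.239).

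Partners of HSPA9 in the mitochondrion held genes of both directions. Of 10 tested, 3 were higher, 3 lower and 4 not called, with a median log2 fold change of 0.060. ISCU, the scaffold on which iron-sulfur clusters are built, fell from 19.2 ± 0.638 to 12.4 ± 0.290 FPKM (SD, n = 3; -0.64, edgeR adjusted p = 1.20e-13). TIMM44, which anchors HSPA9 at the import channel, rose from 11.01 ± 0.544 to 15.9 ± 0.541 FPKM (0.53, edgeR adjusted p = 2.88e-11). Its exchange factors went opposite ways: GRPEL1 rose from 14.7 ± 0.419 to 18.7 ± 0.354 FPKM (0.34, edgeR adjusted p = 1.07e-07), and GRPEL2 fell from 35.3 ± 0.674 to 30.5 ± 0.401 FPKM (-0.21, edgeR adjusted p = 2.44e-05). Over all partner lists, with each gene once, 25 of 53 tested genes were higher and 10 lower, beside 27.8% and 27.0% of all tested genes.

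**Figure D5:**
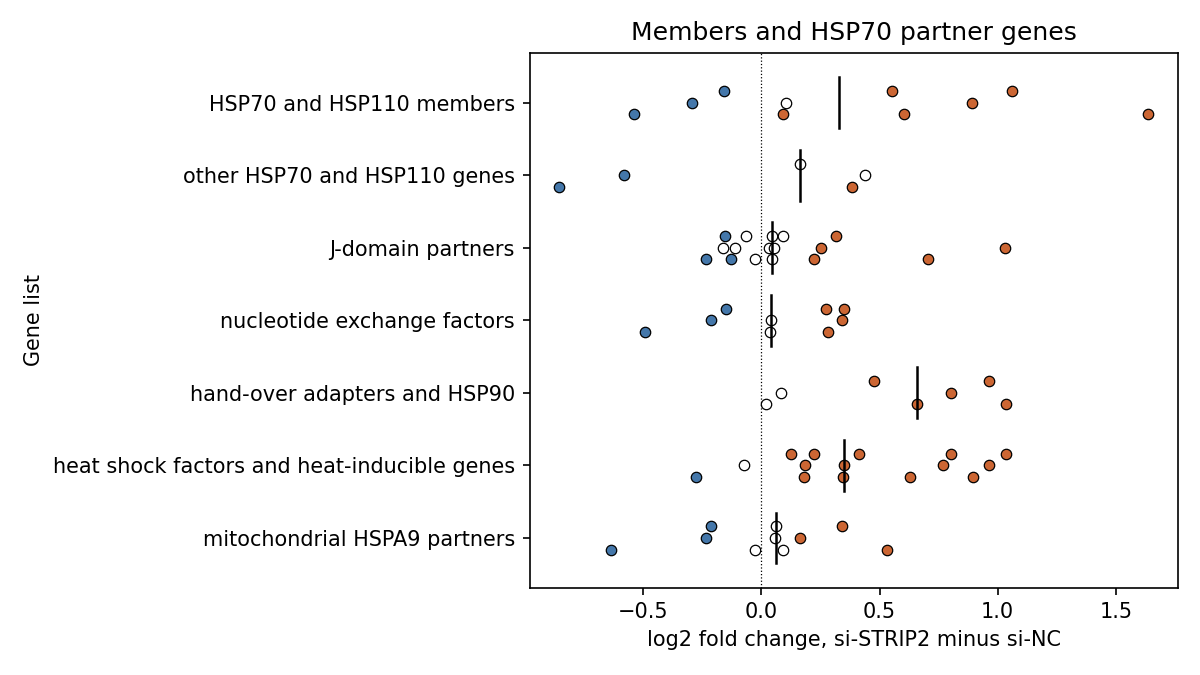
Log2 fold change of each tested gene in the family and in the 6 lists of relatives and partners, with filled points for genes called higher (orange) or lower (blue), open points for genes not called and a bar at each median. The medians are 0.66 for the HSP90 and hand-over list, 0.35 for the heat-inducible list and between 0.040 and 0.16 for the other 4 lists of relatives and partners.

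The 3-unit heat shock element word found before HSPA8 was also set against the partner lists. It occurred in the promoter window of 7 tested partners: HSP90AA1, DNAJA1, HSP90AB1, CHORDC1, HSPD1, DNAJB6 and SERPINH1. All 7 were called higher, and their median change was 0.89 on the log2 scale. Among the 38 tested partners with a window and no such word, 14 were higher and 9 lower, with a median of 0.057. Of all 57 tested genes that hold it, HSPA8 and the 7 partners included, 19 (33.3%) were higher and 13 (22.8%) lower, with a median of 0.068. Without those 8, the other 49 genes gave 11 higher (22.4%) and 13 lower (26.5%), with a median of -0.018. Over the 11074 tested genes with a window, these shares were 29.6% and 28.7% and the median was 0.009. The search was added after the fold changes were known, and the lists hold many genes picked for being heat-inducible.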

How the data were processed

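Poly(A) RNA of 6 HCT116 libraries was sequenced from directional libraries, per the labels' protocols. The submitters' processing notes name cutadapt 1.9.1, HISAT2 2.2.1, HTSeq 0.6.1 and GRCh38.p13; settings and use of strand are not given in the sources used here. The authors deposited raw counts and FPKM per gene. The deposited FPKM equalled count over exonic size and library total within 0.005. Genes were matched by symbol.

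Counts were tested in R 4.3.3 with edgeR 4.0.16: filterByExpr (minimum count 10), TMM scaling, a quasi-likelihood fit with group as the only term, and Benjamini-Hochberg adjustment over 15687 genes. A gene was called at an adjusted p under 0.05. Standard errors are the absolute log2 fold change over the square root of F. The script was tested on simulated data. With 17184963 to 21721218 counts per library, values near 3 counts cannot be told from 0.

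The members and lists were chosen with earlier results of these data known. Text names all members, up to 3 called genes of at least 1 FPKM per partner list by size of change, and the 5 nearest profiles. Other genes were named after their values were seen. Alternatives were DESeq2 1.42.0, limma 3.58.1 on log2(FPKM + 1) and log2(FPKM + 0.1), other scalings and filters, a replicate block and leaving out each library.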

Additional observations from a re-analysis of the deposited data

How the results depend on the processing

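Over the 14 alternative fits no log2 fold change of a family member changed sign. HSPA8 ranged from 1.60 to 1.68, HSPA1B from 0.96 to 1.13, HSPH1 from 0.53 to 0.58, HSPA9 from -0.32 to -0.27 and HSPA13 from -0.57 to -0.51. The log2 fold change of HSPA4 ranged from 0.078 to 0.10, of HSPA4L from 0.080 to 0.12 and of HSPA14 from -0.19 to -0.13. HSPA1A (0.22 to 0.97) and HSPA2 (0.13 to 0.66) moved most, both lowest with limma on log2(FPKM + 1), whose pseudocount exceeds their levels. The count of members called was 9 in the main fit, 6 with DESeq2, 6 with no filter on low counts and 6 with a filter of 1 FPKM. That filter leaves HSPA1A and HSPA2 untested, and 3 members were then called higher. Leaving out each library in turn gave 5 to 7 members called, 3 to 5 of them higher and 2 to 3 lower, with 5 called without si-NC replicate 1, si-NC replicate 2 or si-STRIP2 replicate 3. HSPA4L was not called in any of the fits. The count of all genes called ranged from 7238 (DESeq2) to 8559 (RLE factors) against 8599, and that of partner genes called from 31 to 35 against 35. With the replicate block 7 members were called, HSPA2 and HSPA4 losing their calls. Same-numbered libraries did not deviate together (correlations -0.0858, -0.0133 and -0.0718), so the numbers were not taken as pairs.

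The shares of the summed level depend on the length used. On CPM, HSPA8 held 13.6% in si-NC and 34.4% in si-STRIP2, and HSPA9 50% and 33.3%. With principal transcript lengths, an alternative added after seeing the data, HSPA8 held 22.7% and 49.6%, and HSPA9 43.6% and 25.02%. On exonic sizes, leaving out each library in turn gave HSPA8 means of 18.38% to 18.75% in si-NC and 42.34% to 43.17% in si-STRIP2. Those of HSPA9 were 33.71% to 34.01% and 20.36% to 20.56%. Depth limits HSPA1A and HSPA2, with mean counts of 14.8 and 27.0.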
